A study of Mus musculus with 912 samples.

Results

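The nuclei described here are dentate granule nuclei that carried ARC protein but no FOS protein 1 h after a second visit to an environment, and they are compared between mice whose second environment was the one already visited and mice whose second environment was a different one. They were sorted from mouse hippocampus as PROX1+ CTIP2+ ARC+ FOS-, and each nucleus was made into its own SmartSeq2 library. Members were the nuclei with these sort labels and at least 4000 genes above 1 in log2(TPM+1), that is, the base 2 logarithm of TPM plus 1, where TPM is the length-scaled share of a nucleus's transcripts. Of 190 nuclei with the labels, 175 were kept, among 912 nuclei in the whole series. All mice were wild-type C57BL6 females bought from commercial breeders, explored the cages together with their cage mates and had no treatment beyond the exposures. The A>A mice spent 15 min in environment A, a rectangular cage with huts and tunnels, returned to the home cage, and spent a further 15 min in A after 4 h. The A>C mice had the same schedule, but their second visit was to environment C, a square cage with other bedding and objects. The labels give an age of 8.7 for the A>C mice and of 7.75 to 8.875 for the A>A mice, with no unit, and the methods of the study describe its animals as 8 weeks old. Nuclei of mouse 19, and likewise of mouse 20, carry several different ages from 7.75 to 8.875. Each of these mouse numbers was nevertheless treated as 1 animal, which the labels leave uncertain.

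The A>A group held 129 kept nuclei of 142 labelled, from 6 mice numbered 19, 20, 24, 25, 26 and 27, which gave between 16 and 24 nuclei each. Of the A>C group, 46 of 48 labelled nuclei were kept, 19 from mouse 11 and 27 from mouse 12. A mouse was the unit of every test, because the nuclei of 1 mouse are not independent. Shares of nuclei in which a gene was counted, unless given by mouse, pool the mice of a group. They are descriptions without a test. Every A>C nucleus carries the source code X160602 in the labels and no A>A nucleus does, so context and source code cannot be told apart in this comparison. Nuclei of the A>A mice carry X161209 and X170113 (mice 19 and 20), X170525 (mice 24 and 25) or X021618 (mice 26 and 27). The labels do not say what a source code stands for. Where codes are called earlier or later below, their digits were read as dates, which is an assumption. X021618, whose digits need another order to be read so, was counted as later. The 3 nuclei nearest to the threshold from above had 4038, 4047 and 4128 genes and the 3 nearest from below 3844, 3923 and 3953, and all of these came from A>A mice 19 and 20.

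Granule neurons of the dentate gyrus fire sparsely, and strong activity switches on immediate early genes such as Fos, Egr1 and Arc within minutes. FOS protein is lost within a few hours, while ARC protein stays in granule neurons for longer, so an ARC+FOS- nucleus after the second visit is read in the study as a neuron that was active in the first visit and not in the second. Later waves of activity-dependent transcription include secreted and synaptic proteins that alter how a neuron receives and sends signals, and the question of this comparison is whether the second context left a mark on neurons that did not respond to it.

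The kept nuclei had between 148172 and 4337257 total counts. In A>C nuclei the median total was 1075264, against 2133171 in A>A nuclei. Averaged per mouse, the totals were 1062000 and 1252000 in the A>C mice and 1939000 to 2520000 in the A>A mice, so the groups did not overlap (1157000 ± 133800, SD, n = 2, and 2143000 ± 221400, SD, n = 6; two-sided exact permutation p = 0.0714, the smallest that 2 against 6 mice can give). The share of reads that aligned was 28.0% ± 0.87 (SD, n = 2) in A>C mice and 37.5% ± 3.07 (SD, n = 6) in A>A mice, again without overlap (exact permutation p = 0.0714). A>C nuclei had 5671 and 5764 genes above the threshold per mouse, against 4635 to 5735 in A>A mice (exact permutation p = 0.143). With every nucleus thinned to 100000 counts, the values were 4432 and 4479 genes in A>C mice and 3321 to 4437 in A>A mice (exact permutation p = 0.143). Adjusted over these 4 measures, every p was 0.143. The A>C mice thus stood apart in depth and alignment. On counts thinned to this depth edgeR called 0 genes between the contexts, as on the full counts. That test had little power on either, so it does not bear on the part of depth. The parts of depth and of the aligned share in the gene differences given next were not tested.

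**Figure D1:**
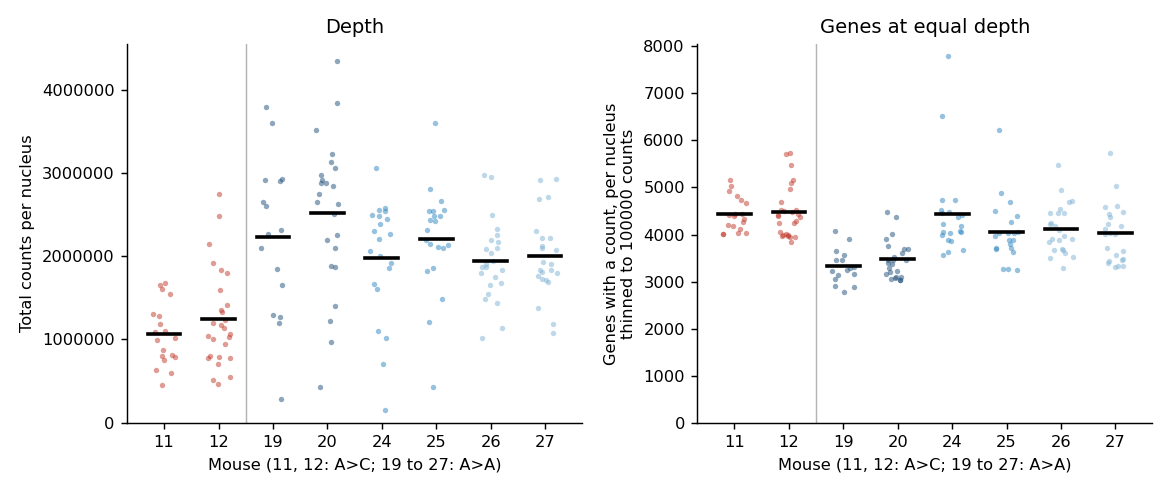
Total counts per nucleus (left) and genes with a count after thinning each nucleus to 100000 counts (right), by mouse. Points are nuclei, black bars are means per mouse, red is A>C and blues are A>A (shades group mice by source code); the means of total counts are 1062000 and 1252000 in mice 11 and 12 and at least 1939000 in every A>A mouse.

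Dentate granule markers were present in every mouse. All 16 dentate granule markers were measured, their summed level lay between 1650 and 1900 TPM in A>C mice and between 1600 and 2280 TPM in A>A mice, and Prox1, the transcription factor that keeps granule cell identity, was counted in 45 of 46 A>C and 124 of 129 A>A nuclei. Of the markers of other cells, Drd2 (mossy cells), Cspg4 and Olig2 (oligodendrocyte precursors), and Cldn5 and Ly6c1 (endothelium) were at 0 in every mouse, and Slc32a1, Vip and Pvalb (interneurons) were at 0 in both A>C mice. Summed levels of the 9 astrocyte markers were 182 to 260 TPM in A>C and 193 to 492 TPM in A>A mice, those of the 9 oligodendrocyte markers 372 to 507 and 417 to 913 TPM, and those of the 12 interneuron markers measured 1150 to 1630 and 755 to 2350 TPM. The ranges for the 8 mossy cell markers were 1200 to 1470 and 730 to 1610 TPM, for the 9 CA1 markers 34.6 to 93.0 and 59.4 to 260 TPM, and for the 8 CA3 markers measured 40.1 to 107 and 10.9 to 109 TPM. Summed levels were 14.1 to 30.6 and 5.21 to 54.6 TPM for the 9 microglial markers, 0.0156 to 14.6 and 0.0225 to 19.1 TPM for the 6 oligodendrocyte precursor markers, and 0.844 to 17.5 and 0.814 to 51.2 TPM for the 7 endothelial and mural markers. The microglial genes P2ry12, C1qa, C1qb, C1qc, Tmem119 and Ctss, the astrocyte genes Aldh1l1 and Fgfr3, and the oligodendrocyte genes Mog and Opalin were at 0 in both A>C mice. So were Calb2 (immature granule and mossy cells), Gpr161 (CA1), and Pdgfra and Sox10 (oligodendrocyte precursors). In the other direction, Erbb4 (interneurons) and Gpr17 (oligodendrocyte precursors) were at 0 in every A>A mouse but above 0 in A>C. The A>C group had fewer nuclei and lower depth, and the part of this in the zeros was not tested. In each list of other cells the A>C and A>A ranges of summed level overlapped, and the 9 immature granule markers also overlapped, at 133 to 165 and 72.8 to 180 TPM. By mean log2(TPM+1) the 8 CA3 markers were at 0.57 and 0.84 in A>C and 0.26 to 0.61 in A>A mice, and the immature granule markers at 1.05 in both A>C mice and 0.67 to 1.12 in A>A mice.

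No gene passed the test on counts summed per mouse, a test that at the spread of these sums had little power. Of 21656 genes tested with edgeR's quasi-likelihood test, 0 (0.0%) had a Benjamini-Hochberg adjusted p under 0.05, and the smallest adjusted p was 0.394. In simulated sums with the spread of these data the same test missed most or all of the large changes put in, so a count of 0 here does not show that the contexts were alike. An unadjusted p under 0.05 was reached by 1023 genes, 754 of them higher in A>C (3.48% of the genes tested) and 269 lower (1.24%). The fit used 22 mouse sums over the 6 groups of the second set and left 16 residual degrees of freedom. The same contrast on the mean log2(TPM+1) per mouse, tested with limma over 11715 genes, called 3 genes (0.0256%), and 912 genes had an unadjusted p under 0.05, 818 higher (6.98%) and 94 lower (0.802%). The limma difference was above 0 for 7464 of the 11715 genes (63.7%). Set against 1 pair of A>A mice at a time, A>C was higher for 74.9% (mice 19 and 20), 53.2% (24 and 25) and 57.1% (26 and 27). Mice 19 and 20 were themselves higher for only 24.9% of genes against mice 24 and 25, and for 34.4% against 26 and 27. DESeq2 on the sums called 600 of 26059 genes (2.3%), 123 higher and 477 lower, and none of the 3 genes called by limma was among them. Of the 477 lower genes, 419 had at most 3 counts in all A>C nuclei together, and in 38 of them both A>C mice lay below all A>A mice. For the 123 higher genes, 1 nucleus supplied a median of 93.1% of the A>C counts, and 27 of them were separated in this way. The median over all genes was -0.21 in edgeR and +0.15 in limma on the log2 scale, and 16 of the 58 named genes had opposite signs under these tests.

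Gpbp1, which encodes a GC-rich promoter binding protein, had the greatest difference of the 3 genes called by limma. Its mean log2(TPM+1) was 4.26 and 4.49 in the A>C mice, against a lowest value of 1.07, a median of 1.51 and a highest of 2.33 in the A>A mice. Both A>C mice were well above every A>A mouse (difference +2.78, SE 0.49, limma adjusted p = 0.026; edgeR +1.31, SE 0.47, adjusted p = 0.80). The gene (chr13:111425680-111490111, GRCm38, minus strand) shares exon bases with 1 other gene model, Gm49496, on the same strand. After thinning to equal depth, Gpbp1 was counted in 58.7% of A>C and 23.3% of A>A nuclei. In FOS+ nuclei the shares were 35.4% in A>C and 40.8% in A>A.

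Gm20388 was at 2.38 and 2.65 in A>C and between 0.02 and 0.83 in A>A mice, with a median of 0.70 (limma +1.94, SE 0.27, adjusted p = 0.002; edgeR +2.03, SE 1.47, adjusted p = 1.0). This gene model (chr8:119910841-124345722, plus strand) spans 209 other genes and shares exon bases with Usp10, Galnt2 and 1810008B01Rik, so its reads may belong to a neighbour. Gm10849, a pseudogene (chr2:14603990-14604611, minus strand) that shares exon bases with the calcium channel gene Cacnb2 on the other strand, was at 2.22 and 2.30 in A>C and between 0.00 and 0.55 in A>A mice (limma +2.01, SE 0.33, adjusted p = 0.017). It had 589 counts in A>C and 214 in A>A nuclei, and strand was not stated to have been used in counting. For both gene models the A>C mice were close to each other and clear of all A>A mice. With limma, leaving out mouse 11 or mouse 12 left 0 genes called. Gm20388 was called without each A>A mouse in turn, Gm10849 without each but mouse 19, and Gpbp1 only without mouse 24 or mouse 25. Setd7 joined when mouse 24 was left out.

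In mean log2(TPM+1), both A>C mice lay above all 6 A>A mice for 1019 of 11715 genes (8.7%) and below all of them for 167 (1.43%). From these, the rule for named genes took in each direction the 10 with the smallest unadjusted edgeR p, none of which was past the adjusted threshold. Among the 10 higher genes was Cck, the neuropeptide cholecystokinin, at 8.00 and 7.91 in A>C and at 3.72, 6.60 and 7.29 (lowest, median and highest) in A>A mice. The lowest A>A values were those of mice 26 and 27 (edgeR +1.10, SE 0.38, p = 0.010, adjusted p = 0.77). Sik1, a salt-inducible kinase gene that is itself switched on by activity, was at 1.04 and 1.10 in A>C and at 0.13 to 0.69 in A>A mice (edgeR +3.91, SE 0.97, p = 0.00076, adjusted p = 0.54). It was counted in 13 of 46 A>C and 34 of 129 A>A nuclei, and after thinning in 23.9% and 8.53%. Cpne4, a calcium-dependent membrane-binding copine, was at 1.97 and 2.40 against 0.29 to 0.80, and Setd7, a lysine methyltransferase gene, at 2.04 and 1.74 against 0.06 to 0.78 (edgeR +3.14 and +3.93, adjusted p = 0.67 and 0.73). Slitrk2, a synaptic adhesion gene, was at 1.78 and 2.64 against 0.67 to 1.53 (edgeR +1.95, SE 0.57, adjusted p = 0.62). The others were Arsb, Rabif, Wdr66, Pgam1-ps2 and AA543186. Of the A>C counts of Wdr66, 67.1% came from 1 nucleus, and AA543186 shares exon bases with Man1b1.

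Of the 10 lower genes, Mlf2, which encodes a myeloid leukaemia factor, had the greatest difference in mean log2(TPM+1), with 4.82 and 3.68 in A>C and 6.16, 6.89 and 7.91 (lowest, median and highest) in A>A mice. The lack of overlap was a condition of the rule that named the gene, and neither test called it (edgeR -1.30, SE 0.41, p = 0.0053, adjusted p = 0.66; limma -2.59, SE 0.80, adjusted p = 0.33). Higd1a, a hypoxia-inducible protein of the mitochondrial inner membrane, was at 1.55 and 1.32 against 2.93 to 5.63 (edgeR -2.01, SE 0.50, adjusted p = 0.54), and its counts came from 11 of 46 A>C and 91 of 129 A>A nuclei. Nlk, a kinase gene of the study's late list, was at 2.76 and 2.05 against 3.10 to 4.19 (edgeR -1.54, SE 0.48, adjusted p = 0.65). The ubiquitin-conjugating enzyme gene Ube2g1 was at 1.97 and 1.48 against 2.79 to 3.68, and Aplp1, a relative of the amyloid precursor protein, at 8.04 and 7.89 against 8.21 to 9.25. The remaining genes were Exoc8, Ccdc12, Klhdc3, Mrps11 and Gm26377. Mrps11, a mitochondrial ribosomal protein gene, had 2 counts in 1 A>C nucleus and 5998 counts in 28 A>A nuclei. Gm26377 lies in exon sequence of Eef1a1 on the same strand, and its 12 counts in A>C may be reads of that gene. DESeq2 called 14 of the 58 named genes, all of them among these higher and lower genes. Other gene models share exon bases on the opposite strand with Arsb, Wdr66, Setd7, Higd1a, Mrps11 and Klhdc3, and reads of such pairs cannot be told apart without strand.

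**Figure D2:**
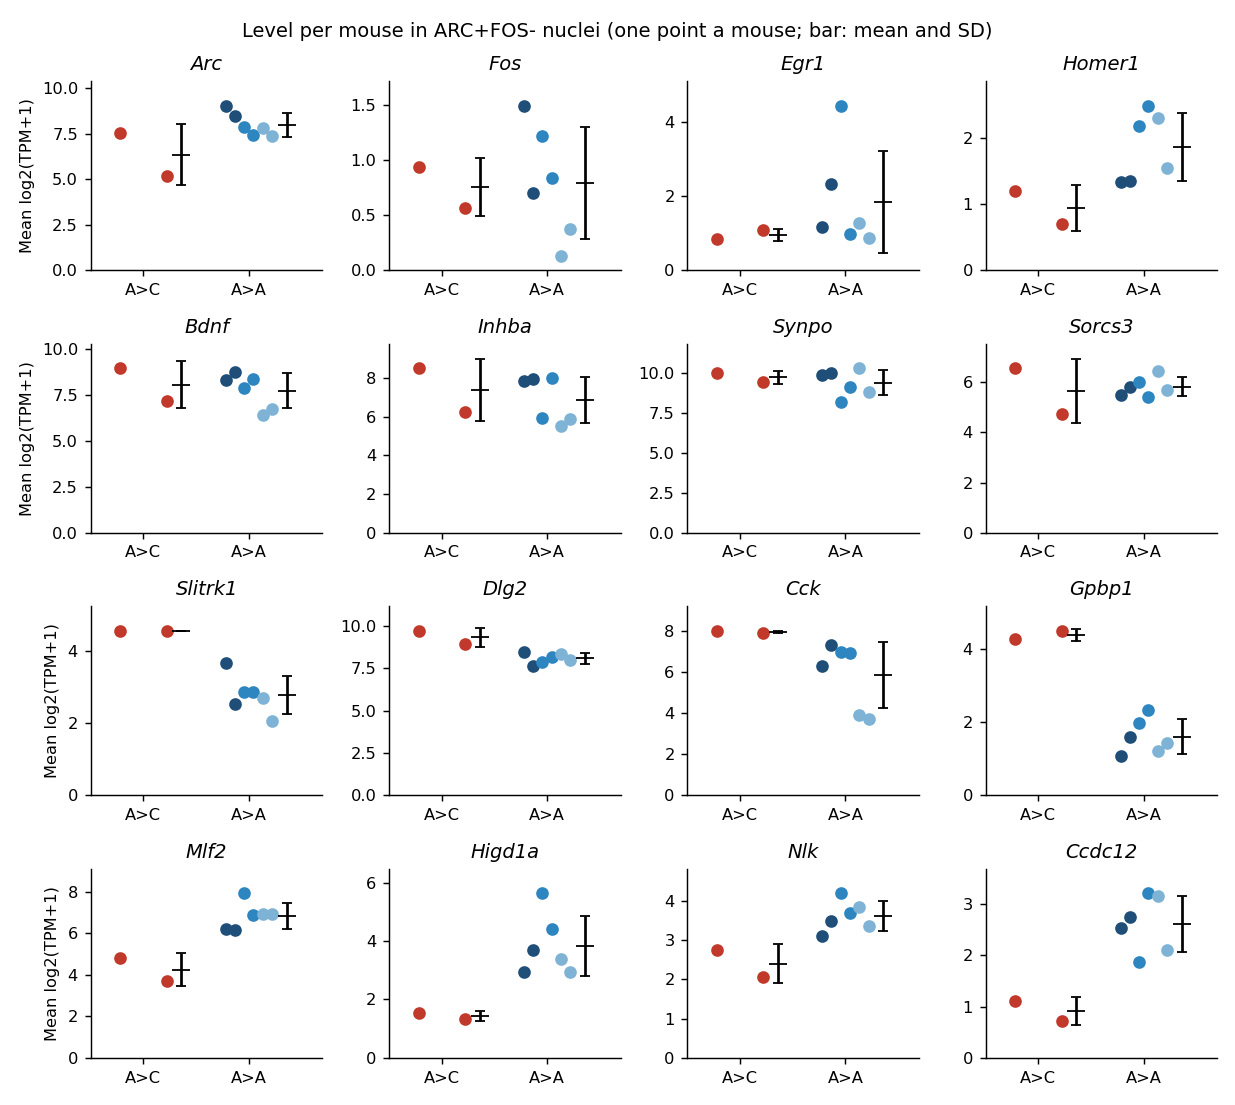
Mean log2(TPM+1) per mouse for 16 genes in ARC+FOS- nuclei of A>C (red) and A>A mice (blues, shades group mice by source code). Points are mice and bars are the mean and SD of n = 2 and n = 6; Arc overlaps between groups with 5.14 in mouse 12, while Gpbp1 (4.26 and 4.49) and Mlf2 (4.82 and 3.68) do not overlap the A>A mice.

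Arc RNA, whose protein was used in the sort, was at 7.53 and 5.14 in A>C mice and at 7.36, 7.81 and 9.03 (lowest, median and highest) in A>A mice. Mouse 11 lay within the A>A range and mouse 12 below it (edgeR -0.66, SE 0.36, p = 0.085, adjusted p = 1.0; limma -1.65, SE 0.71, p = 0.029, adjusted p = 0.58). Arc was counted in 40 of 46 A>C and 128 of 129 A>A nuclei, and after thinning in 71.7% and 91.5%. For comparison, Arc was at 0.00 to 0.61 in 4 mice with home-cage FOS- granule nuclei and at 9.21 ± 0.50 (SD, n = 6) and 9.67 ± 0.20 (SD, n = 2) in the FOS+ nuclei of A>A and A>C mice. Arc RNA in ARC+FOS- nuclei of both contexts was thus far above the home-cage values. Only the former were sorted for ARC protein, so this gap cannot be told apart from the sort. Home-cage nuclei also belong to the first set, with another antibody panel, and mice 3 and 5 gave 1 of them each.

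Fos RNA, whose protein the sort excluded, was at 0.94 and 0.57 in A>C and 0.13 to 1.49 in A>A mice. Fos was counted in 2 of 19 and 2 of 27 nuclei of the A>C mice. In A>A mice it was counted in 9 of 16, 16 of 24, 12 of 21, 4 of 21, 1 of 24 and 1 of 23 nuclei of mice 19, 20, 24, 25, 26 and 27, so the A>A mice differed widely among themselves. Over all nuclei the shares were 8.7% in A>C and 33.3% in A>A, beside 37.5% and 33.1% in FOS+ nuclei. At equal depth they were 8.7% and 8.53%, beside 31.2% and 26.2% in FOS+ nuclei. Egr1, another immediate early transcription factor gene, was at 0.83 and 1.07 against 0.87 to 4.43, with the highest value in mouse 24 and a median of 1.22. Pooled over the mice of each group, its share of nuclei at equal depth was 17.4% in A>C and 30.2% in A>A. Of the 35 genes that the study names for its granule signatures, 29 overlapped between the groups, 5 (Crem, Dlg2, Grm7, Pxdn and Slitrk1) had both A>C mice above all A>A mice, beside 8.7% of all genes, and 1 had both below, beside 1.43%. That 1 was Homer1, the postsynaptic scaffold gene with an activity-induced short form (1.19 and 0.70 against 1.34 to 2.48; edgeR -0.48, SE 0.86, adjusted p = 1.0). Fosb had 6 counts in A>C, all in 1 nucleus, and 1572 counts in 19 A>A nuclei. Of the 31 immediate early genes listed, 24 were tested by limma. A positive difference was found in 11 of these, beside 63.7% of all genes. Their median difference was -0.02, which is 0.18 below the +0.15 of all genes. No member was called by edgeR or limma, and DESeq2 called 2 of the 31, beside 2.3% of all genes.

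No effector that follows the first wave was called by edgeR or limma. DESeq2 called 1 of the 24 plasticity effectors listed, beside 2.3% of all genes. Bdnf, the neurotrophin that strengthens active synapses, was at 8.94 and 7.14 in A>C and 6.39, 8.06 and 8.75 (lowest, median and highest) in A>A mice. Inhba, a subunit of the growth factor activin, was at 8.52 and 6.25 against 5.55 to 7.99. The actin-associated spine protein gene Synpo was at 10.01 and 9.42 against 8.20 to 10.28. Mouse 12 lay inside the A>A range in all 3 genes and mouse 11 lay above it in Bdnf and Inhba, and edgeR differences were -0.34 (SE 0.35), -0.38 (SE 0.45) and -0.15 (SE 0.30), with an adjusted p of 1.0. Nptx2, a neuronal pentraxin that gathers AMPA receptors, was at 5.57 and 3.99 against 4.15 to 6.33. Its relative Nptx1 was at 8.08 and 7.87 against 5.92 to 7.39, with both A>C mice above every A>A mouse. Rasgrp1, a Ras activator gene, was lower in both A>C mice, at 1.60 and 2.53 against 2.98 to 5.31 (limma -1.92, SE 0.54, p = 0.0017, adjusted p = 0.27; edgeR -1.26, SE 0.83). Over the 22 plasticity effectors tested by limma the median difference was +0.17, beside +0.15 over all genes, and 0 members were called by edgeR or limma.

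The study grouped activity-dependent genes by their course after 1 exposure, using home-cage, 1 h, 4 h and 5 h nuclei and none of the nuclei compared here. The mean log2(TPM+1) over the 252 early genes was 2.53 and 2.52 in A>C mice and 1.97 to 2.63 in A>A mice, beside 4.54 in the 1 mouse with FOS+ nuclei at 1 h. Home-cage FOS- nuclei come from 4 mice, of which mice 6 and 7 gave 19 and 5 kept nuclei and mice 3 and 5 gave 1 each. The early list was at 2.19 and 2.28 in mice 6 and 7 and at 3.03 and 2.22 in mice 3 and 5, and the nucleus of mouse 3 had granule markers summing to only 84.9 TPM. Both A>C mice were thus above 3 of the 4 home-cage mice and the A>A range overlapped theirs, while FOS+ nuclei of the same experiment stood at 3.41 ± 0.41 (SD, n = 6) in A>A and 3.96 ± 0.26 (SD, n = 2) in A>C. The 107 sustained genes were at 5.76 and 5.14 in A>C and 5.01 to 5.43 in A>A mice, above the 2.64 to 3.65 of home-cage mice. For the 129 late genes the values were 5.22 and 4.50 in A>C and 4.15 to 4.64 in A>A mice, against 2.61 to 3.13 in home-cage mice and 3.95 ± 0.52 (SD, n = 6) and 3.54 ± 0.02 (SD, n = 2) in FOS+ nuclei of A>A and A>C. Mouse 11 was above all A>A mice in the sustained and the late list and mouse 12 was inside the A>A range in both. Home-cage nuclei belong to the first set, which was sorted with another antibody panel, so these levels are set side by side without a test.

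**Figure D3:**
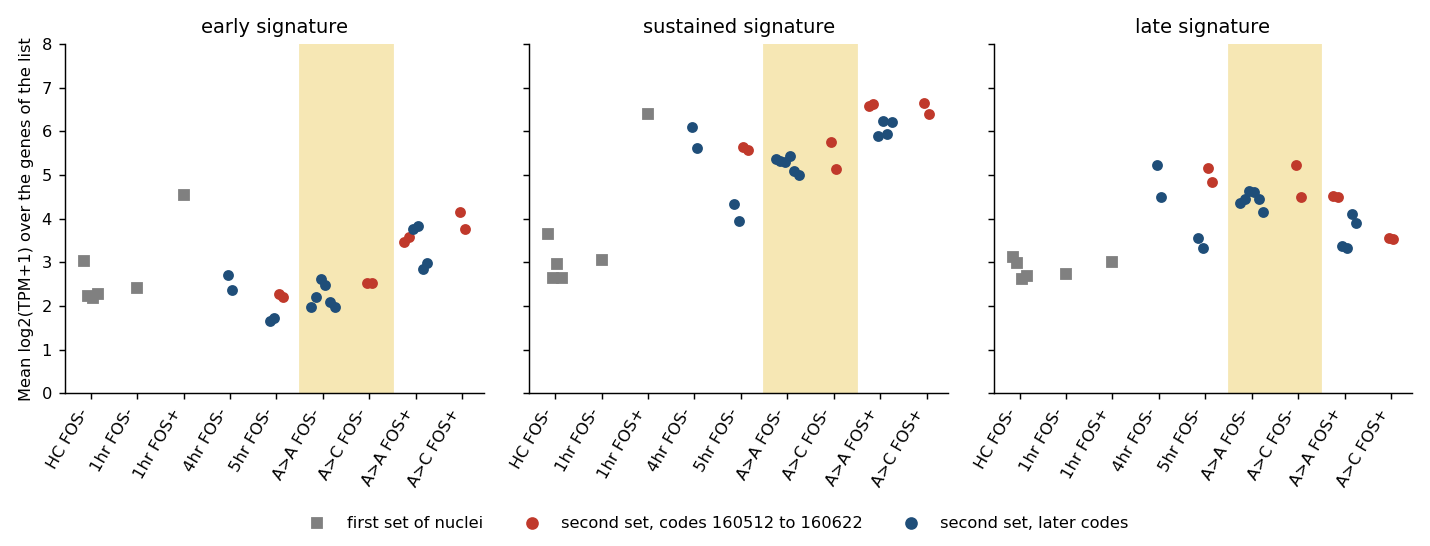
Mean log2(TPM+1) over the genes of the study's early, sustained and late lists, one point per mouse and group. Grey squares are the first set of nuclei, red points second-set source codes 160512 to 160622 and blue points later codes; the shaded columns are the nuclei compared here, where late genes reach 5.22 and 4.50 in A>C and 4.15 to 4.64 in A>A mice and the 5 h mice separate by source code.

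Gene by gene, the limma difference was above 0 for 168 of 249 early, 66 of 107 sustained and 95 of 129 late genes, beside 63.7% of all genes. The median limma difference was +0.26 over 249 early genes, +0.19 over 107 sustained genes and +0.49 over 129 late genes, which is 0.10, 0.04 and 0.33 above the median of all genes. Both A>C mice lay above all A>A mice for 30 early, 11 sustained and 17 late genes, and below all for 2, 1 and 2, beside 8.7% and 1.43% of all genes. In edgeR the medians were -0.12, -0.32 and -0.24, which is 0.08 above, 0.11 below and 0.04 below the median of all genes, so relative to all genes the early list kept its sign under both measures and the others did not. No member of the 3 lists was called by edgeR or limma. DESeq2 called 3 of 252 early, 2 of 107 sustained and 1 of 129 late genes, beside 2.3% of all genes. Sorcs3, a sorting receptor gene of the late list, was at 6.56 and 4.75 in A>C and at 5.42 to 6.45 in A>A mice, against 0.00 to 1.45 in home-cage mice and 0.68 ± 0.30 (SD, n = 2) in A>C FOS+ nuclei. Blnk, an adaptor gene of the same list, was at 5.91 and 3.77 against 2.58 to 4.60. Crem, a cAMP-responsive transcription factor gene of the early list, was at 1.07 and 1.38 against 0.15 to 1.03, and Pxdn, an extracellular matrix peroxidase gene of the late list, at 5.76 and 5.06 against 3.43 to 4.72. For Crem and Pxdn both A>C mice were above every A>A mouse, with edgeR differences of +0.48 (SE 1.92) and -0.16 (SE 0.70) and an adjusted p of 1.0.

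Synaptic receptor and adhesion genes had list medians well above that of all genes in mean log2(TPM+1). Slitrk1, a postsynaptic adhesion gene, was at 4.53 and 4.54 in A>C and at 2.05, 2.77 and 3.66 (lowest, median and highest) in A>A mice, with no overlap (limma +1.76, SE 0.58, p = 0.0058, adjusted p = 0.38; edgeR +0.16, SE 0.52, p = 0.77). Dlg2, the scaffold PSD-93, was at 9.69 and 8.92 against 7.64 to 8.45, and Grm7, a presynaptic metabotropic glutamate receptor gene, at 9.04 and 8.24 against 6.71 to 7.70. Both were above every A>A mouse, with edgeR differences of +0.33 (SE 0.43) and +0.32 (SE 0.38). Nlgn1, the neuroligin of excitatory synapses, was at 5.88 and 5.83 against 2.88 to 4.48 (limma +2.03, SE 0.65, p = 0.0047, adjusted p = 0.37), and its partner Nrxn3 at 8.93 and 7.35 against 4.74 to 7.19. Slitrk3 and Slitrk4 overlapped between the groups. Of 27 scaffold and adhesion genes tested by limma, 23 had a positive difference, 5 had both A>C mice above all A>A mice and 1 below, beside 63.7%, 8.7% and 1.43% of all genes, and the median was +0.93, which is 0.78 above that of all genes.

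The receptors for the inhibitory transmitter GABA had a median difference of +0.99 over 13 genes, 11 of them positive, beside 63.7% of all genes. Gabra2, an alpha subunit of the ionotropic receptor, was at 8.48 and 8.79 against 5.25 to 8.01 (limma +1.59, SE 0.86, p = 0.078, adjusted p = 0.70; edgeR +0.32, SE 0.38), and Gabbr2, a subunit of the metabotropic receptor, at 3.86 and 4.56 against 2.39 to 3.82, with both A>C mice above every A>A mouse in each. Gabra4, a subunit of the study's late list, was at 7.70 and 7.85 against 6.03 to 7.88 and so overlapped. Among 18 glutamate receptor genes 15 had a positive difference, with a median of +0.63, and Gria2, the AMPA receptor subunit that limits calcium entry, was at 10.13 and 10.29 against 9.39 to 9.90. The 19 potassium channel genes had a median of +0.42, and 14 were positive. Kcnk1, a two-pore channel gene, was at 9.07 and 8.32 against 6.85 to 9.56, and Kcnc4, a fast voltage-gated channel gene, at 3.62 and 3.28 against 3.56 to 4.76 (edgeR -1.08, SE 0.49, p = 0.04, adjusted p = 1.0). By edgeR on summed counts the medians of these lists were +0.19 for adhesion, +0.04 for GABA receptors, +0.09 for glutamate receptors and -0.31 for potassium channels, which is 0.40, 0.24 and 0.29 above and 0.10 below the median of all genes. Beside these lists, the CA3 markers had a median limma difference of +1.05 over the 3 tested (edgeR +1.05 over 8), with Pvrl3 at 1.57 and 2.56 against 0.44 to 1.55 and the kainate receptor gene Grik4 at 2.35 and 2.58 against 0.27 to 2.59. The immature granule markers had a median of +0.66 over 4 tested, all of them positive. The part of these markers in the receptor and adhesion medians was not tested. Neither edgeR nor limma called any member. DESeq2 called 1 of 23 glutamate receptor and 1 of 26 potassium channel genes listed, beside 2.3% of all genes.

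Among the other lists, the median limma difference was +0.29 over 16 dentate granule markers, +0.32 over 16 chromatin regulators of the early response, +0.23 over 13 heat shock and stress genes, +0.05 over 14 clock genes and +0.03 over 13 glucocorticoid-responsive genes. Over 52 respiratory chain genes it was -0.00, with 26 of them positive, and over 9 nuclear long noncoding RNAs it was -0.19. Over all genes it was +0.15, with 63.7% positive. The A>A mice differed widely in the respiratory chain genes, from 3.55 to 5.68 in mean log2(TPM+1) over the list, and both A>C mice lay within that range. Again 0 members of these lists were called by edgeR or limma. DESeq2 called 1 of 20 chromatin regulators and 1 of 17 heat shock and stress genes listed, beside 2.3% of all genes. Prox1 was at 6.89 and 5.24 in A>C and at 3.84 to 5.15 in A>A mice (limma +1.63, SE 0.53, p = 0.0055, adjusted p = 0.38; edgeR +0.37, SE 0.42), and at equal depth it was counted in 93.5% of A>C and 79.1% of A>A nuclei. Hdac5, a histone deacetylase that leaves the nucleus on activity, was at 1.86 and 3.26 against 0.04 to 1.10 (limma +1.98, SE 0.48, p = 0.00037, adjusted p = 0.16). Rian, a maternally expressed noncoding RNA, was at 6.17 and 6.57 against 4.23 to 4.98, with both A>C mice above all A>A mice.

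**Figure D4:**
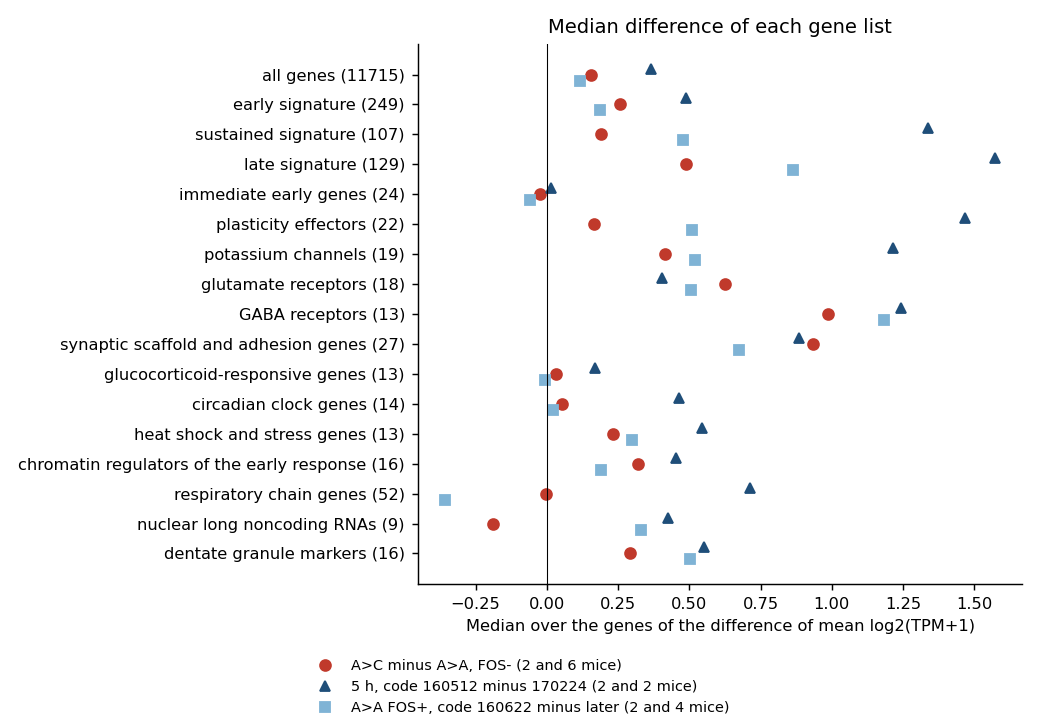
Median over the tested genes of each list (number in parentheses) of the difference in mean log2(TPM+1), for A>C minus A>A in FOS- nuclei (red circles) and for differences between source codes within 1 exposure (dark triangles, 5 h; light squares, A>A FOS+). GABA receptor genes stand at +0.99 for context, at +1.24 between the 5 h codes and at +1.18 between the A>A FOS+ codes.

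Because source code and context coincide, differences between source codes within 1 exposure were measured in the same way. ARC+FOS- nuclei taken 5 h after a single visit to A come from 2 mice of code X160512 and 2 of code X170224. Of 24 labelled nuclei in each of these mice, 22 and 21 were kept in X160512 (mice 8 and 9) but only 10 and 6 in X170224 (mice 22 and 23). Between these codes edgeR called 401 of 21656 genes (1.85%), 363 of them higher in X160512 and 38 lower, and limma called 606 of 11715 genes (5.17%), 541 higher and 65 lower. Without mouse 8 or mouse 9 edgeR called 254 and 234 genes, and without mouse 22 or mouse 23 it called 989 and 433. In A>A FOS+ nuclei, code X160622 (2 mice) against the later codes (4 mice) gave 0 edgeR calls (0.0%; 1258 genes at an unadjusted p under 0.05) and 7 limma calls (0.0598%). The spread of the limma differences over genes, as SD, was 0.56 for context, 0.93 between the 5 h codes and 0.55 between the A>A FOS+ codes.

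Within the A>A ARC+FOS- nuclei, pairs of mice that share a source code could be set against each other with no change of context. The SD over 11715 genes of the difference in mean log2(TPM+1) was 0.643, 0.778 and 0.762 between the 3 A>A pairs, and 0.696, 0.693 and 0.709 between the A>C pair and each A>A pair. Differences beyond 1 made up 16.5%, 19.1% and 15.7% of genes between A>A pairs and 18.9%, 12.9% and 15.1% between the A>C pair and mice 19 and 20, 24 and 25, and 26 and 27. The A>C pair thus differed from the A>A pairs by about as much as these differed from one another. Between A>A pairs edgeR called 3 genes (Dscaml1, Gltscr1l and Odc1, all lower in mice 19 and 20 than in 24 and 25), 1 gene (Gltscr1l, lower in 19 and 20 than in 26 and 27) and 0 genes, and limma called 4, 9 and 3.

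The list medians moved between source codes as well. Between the 5 h codes the median limma difference was +1.57 for late genes, +1.34 for sustained genes, +1.24 for GABA receptors, +0.88 for adhesion genes and +0.37 over all genes, and between the A>A FOS+ codes it was +0.86, +0.48, +1.18, +0.67 and +0.12. Between pairs of A>A mice in ARC+FOS- nuclei the medians ran from -0.13 to +0.30 for late genes and from +0.07 to +0.35 for sustained genes. They ran from -0.39 to +0.97 for GABA receptors, from -0.58 to +0.21 for adhesion genes and from -0.34 to +0.07 over all genes. For respiratory chain genes they ran from -0.57 to +2.01. Of the 1019 genes with both A>C mice above all A>A mice, 78.8% were positive between the 5 h codes and 76.8% between the A>A FOS+ codes, beside 69.9% and 60.4% of all genes. Across 11715 genes the context difference correlated with these code differences at r = 0.187 and r = 0.299, as a description over genes that share libraries and are not independent. Of the 58 named genes, 7 were called by limma between the 5 h codes, all higher in X160512, namely Arc, Cck, Dlg2, Kcnk1, Mlf2, Nptx2 and Tet3. Arc, Mlf2 and Nptx2 had the opposite sign in the context difference, while Gm20388 differed by +0.11 and Gpbp1 by +1.33 between the 5 h codes, without a call. With the earlier or later period of the source codes as an added term, edgeR and limma called 0 genes for context, with 1030 and 650 at an unadjusted p under 0.05, and the median of the late genes was -0.62, of the GABA receptors -0.23 and of the adhesion genes +0.05, beside -0.04 over all genes. These alternatives use period, assumed from the digits of the codes, as 2 blocks of codes, so they do not separate context from X160602 itself.

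**Figure D5:**
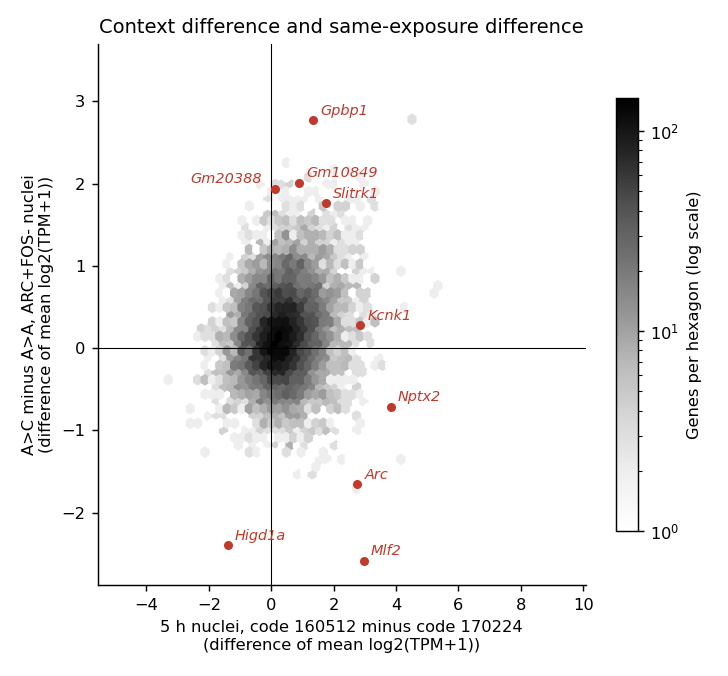
Difference in mean log2(TPM+1) of each of 11715 genes between A>C and A>A in ARC+FOS- nuclei (vertical) against its difference between source codes 160512 and 170224 in 5 h nuclei (horizontal). Shading counts genes per hexagon on a log scale and red points are named genes; r across genes is 0.187, with Mlf2 at -2.59 and +2.96 and Gpbp1 at +2.78 and +1.33.

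FOS+ nuclei give the same contrast in neurons that did respond to the second visit. All A>C FOS+ nuclei carry the source code X160619, which no A>A FOS+ nucleus carries, so context and source code cannot be told apart here or in the comparison of both contrasts. A>C against A>A FOS+ nuclei (2 and 6 mice, of which A>A mice 24 to 27 also gave FOS- nuclei) had 0 genes called by edgeR (0.0%; 1069 at an unadjusted p under 0.05) and 1 by limma (0.00854%), the transcription factor gene Myc (+1.77, adjusted p = 0.034). The test of whether the context difference was another in FOS- than in FOS+ nuclei called 0 genes by edgeR (0.0%; 1005 at an unadjusted p under 0.05) and 0 by limma (0.0%; 559), and DESeq2 called 805. For Sorcs3 the limma context difference was -0.16 (SE 0.74) in FOS- and -2.53 in FOS+ nuclei, and for Gpbp1 it was +2.78 (SE 0.49) and -0.12. No named gene was called in the test of that difference by edgeR or limma. Since A>A mice 24 to 27 enter it with FOS- and FOS+ nuclei, it was also fitted in limma with the mouse as a block (estimated correlation 0.199) and in edgeR with FOS+ sums only of mice without FOS- nuclei, and both called 0 genes (559 and 905 at an unadjusted p under 0.05).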

How the data were processed

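Per the paper, the authors trimmed reads with Solexa-QA++ and quantified them with RSEM (Bowtie) against mm10 with an Ensembl annotation. The deposited RSEM expected counts are whole numbers and were used as counts. The deposited log2 values are log2(TPM+1) computed by the authors. Genes with missing values (30 of 42802 in the count table, 23 of 40221 in the log2 table) were left out. Of the genes tested in edgeR, 1243 have no log2 value.

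Nuclei with at least 4000 genes above 1 were kept. Nuclei were sorted singly after exclusion of aggregates, and no doublet caller was run. The largest correlation between 2 nuclei was 0.721, so no library appeared as a duplicate. Counts were summed per mouse number and tested with edgeR 4.0.16 in R 4.3.3 (TMM, filterByExpr, glmQLFit, glmQLFTest). limma 3.58.1 (trend) on the mean log2(TPM+1) per mouse (pseudocount 1), DESeq2 1.42.0 and other settings were alternatives. Adjusted p-values are Benjamini-Hochberg over all genes tested, with a threshold of 0.05. The tests were checked on simulated data. With a small spread edgeR recovered most of the changes put in, but with the spread estimated from these sums it recovered few or none of them, so its calls are limited by power. The study tested nuclei with ROTS, which was not run. Counts include PCR copies. Each SD is over mice, and each SE comes from the edgeR or limma fit over mouse sums or means. The groups held 2 and 6 mice, and with 2 A>C mice the spread was estimated over all second-set groups (common dispersion 1.91). Gene positions are from GENCODE vM21, matched by symbol for 58 of 58 named genes.

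Named genes are the 35 that the study names for its granule signatures, the 10 fully separated genes in each direction with the smallest unadjusted edgeR p and a group mean of at least 1, and, named after their values were seen, the 3 called by limma. List members outside this rule (such as Nlgn1, Hdac5, Rasgrp1, Prox1 and Rian) were chosen for description after their values were seen. The nuclei, the lists and the tests were chosen with earlier results of these data known.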

Additional observations from a re-analysis of the deposited data

Results flagged for a closer look

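In 88 groups of 6 A>A mice (the named genes, the lists and the depth measures), 2 values stood apart from the other mice by Dixon's criterion, where chance gives about 1 in 20 (4.4 of 88). Mean log2(TPM+1) of Grm7 in A>A mouse 27 was 6.71, below the other 5 A>A mice. The mean over the 9 immature granule markers in A>A mouse 24 was 1.12, above the other 5. Neither was tested further.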

How the results depend on the processing

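The edgeR count of 0 context calls was unchanged with only the FOS- groups, all granule groups, DESeq2 size factors, no filter on low counts, mouse and source code as the unit, other thresholds on nuclei, nuclei without Fos counts, thinning, the period term, each A>A source code alone, and without the nuclei of code X170113. Leaving out 1 mouse gave 0 to 1 calls with edgeR (the 1, Pcdhb14, without mouse 26) and 0 to 4 with limma. DESeq2 called 600 genes, limma 3, limma with a pseudocount of 0.1 called 2, and limma on every gene above 0 called 56, of which DESeq2 called 4. For the difference between FOS- and FOS+ nuclei DESeq2 called 805 genes, limma on every gene 29, and limma with the period term 1. Between the 5 h source codes edgeR called 401 genes and limma 606, and leaving out 1 mouse gave 234 to 989; between the A>A FOS+ codes limma called 7, and for the FOS+ context difference it called 1. The cause of these differences between tools was not tested. No named gene called in the main fit or in an alternative reversed its direction between them. The directions of other called genes were not compared across settings. Depth measures kept their direction without each mouse. The period and leave-one-out settings with limma, the settings without code X170113, limma on every gene for the difference between FOS- and FOS+ nuclei, limma and the settings without each mouse for the source code differences, and the FOS+ context comparison were chosen after seeing the data. No paired analysis was possible for the context difference because no mouse gave FOS- nuclei in both contexts. With the mouse as a replicate block in limma, chosen after seeing the data, 3 genes were called for context and 0 for the difference between FOS- and FOS+ nuclei.

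With 2 A>C mice of 1 source code, an exact test over mice cannot go below p = 0.0714, and the sums of low genes rest on few nuclei.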
